A study of Mus musculus with 4 samples.

Results

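A set of 10 heat shock chaperone genes was followed in natural killer (NK) cells of mouse spleen. They were taken by name as a list: the Hsp70 genes Hspa1a, Hspa1b, Hspa8 and Hspa5, the Hsp110 gene Hsph1, the J protein gene Dnajb1, the Hsp90 genes Hsp90aa1 and Hsp90ab1, and the mitochondrial chaperonin genes Hspd1 and Hspe1. All 10 of the 10 matched an NCBI Gene number among the 17723 listed in any library, and all 10 were listed above 0 in all 4 libraries and reached 5 FPKM (fragments per kilobase of transcript, scaled to library depth) in every comparison. The list was made with the leukaemia against normal values of these genes in view, so those values are given as a description. NK cells are innate lymphocytes that kill tumour cells, and DNAM-1, encoded by Cd226, is an activating receptor on some of them. The 4 groups were DNAM-1+ NK cells of normal spleen, DNAM-1- NK cells of normal spleen, DNAM-1+ NK cells of AML spleen and DNAM-1- NK cells of AML spleen, with 1 library in each. The mice were C57BL/6J of 6 to 8 weeks. The AML mice had received GFP+ leukaemia cells of an MLL-AF9 acute myeloid leukaemia (AML) without irradiation and were taken at day 17. The normal spleens carry the label day 0, so leukaemia and the day label cannot be told apart. The labels name no sort gate beyond NK cells and DNAM-1 and do not say how many mice stand behind a library. With 1 library a group there is no replicate check on any difference, and no p-value is given.

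The libraries listed 15460 to 16161 genes, their FPKM summed to 424666 to 432378, and their depth, estimated from the steps between microRNA values, was 8900000 to 9400000 fragments. Cd226 was at 38.6 and 36.1 FPKM in the DNAM-1+ libraries of normal and AML spleen and at 0.45 and 0.58 in the DNAM-1- libraries. All 7 NK markers, Ncr1 and Klrb1c among them, were listed in every library, with summed levels of 5142 to 6359 FPKM. Markers of other cells were present too, with higher sums in the DNAM-1- libraries except for the T cell and the leukaemia and progenitor lists. The 7 B cell markers summed to 171 and 193 FPKM in DNAM-1+ cells of normal and AML spleen and to 862 and 841 in DNAM-1- cells, and 0 of the B cell, monocyte, macrophage and neutrophil markers were at 0 in any library.

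Hsp70 chaperones bind stretches of unfolded protein and release them in a cycle of ATP hydrolysis that J proteins start and nucleotide exchange factors such as Hsp110 complete. Hsp90 takes over partly folded clients, kinases and steroid receptors among them, with the help of cochaperones. Some of these genes are transcribed at a low level until heat or another proteotoxic stress activates the factor HSF1, which binds heat shock elements, inverted repeats of GAA, in their promoters. Others are transcribed steadily in every cell. For NK cells the inducible Hsp70 protein is also known as a stress signal that can be displayed on the surface of tumour cells.

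The promoters are shown first because the pair of genes with the widest range here, Hspa1a and Hspa1b, share theirs almost letter for letter. Of the 10 genes, 7 had an entry in the RefSeq promoter table (assembly GRCm38.p6), and Hspa8, Hsp90aa1 and Hsp90ab1 had none. The sequences run 5′ to 3′ on the strand of the gene, end before the annotated start, and carry matches to heat shock element letters in capitals. Those of Hspa1a (chr17:34972157-34972406, minus strand) and Hspa1b (chr17:34959239-34959488, minus strand) are the 250 bases before the start. Those of Hspe1 (chr1:55088034-55088108, plus strand) and Hsph1 (chr5:149636337-149636394, minus strand) are the stretch around the match.
Hspa1a: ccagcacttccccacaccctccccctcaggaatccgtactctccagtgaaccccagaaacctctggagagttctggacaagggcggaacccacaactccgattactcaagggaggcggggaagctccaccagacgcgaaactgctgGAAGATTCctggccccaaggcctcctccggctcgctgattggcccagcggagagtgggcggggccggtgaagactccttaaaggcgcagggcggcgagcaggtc
Hspa1b: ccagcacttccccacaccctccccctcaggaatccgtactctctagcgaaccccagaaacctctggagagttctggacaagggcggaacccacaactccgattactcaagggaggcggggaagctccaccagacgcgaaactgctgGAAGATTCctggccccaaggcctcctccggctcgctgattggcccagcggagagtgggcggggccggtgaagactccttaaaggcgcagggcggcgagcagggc
Hspe1: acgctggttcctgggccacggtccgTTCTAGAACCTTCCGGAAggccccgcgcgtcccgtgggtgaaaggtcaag
Hsph1: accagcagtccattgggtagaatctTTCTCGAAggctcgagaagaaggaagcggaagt

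The Hspa1a and Hspa1b windows were identical at 98.8% of 250 bases. They differed by C207T, T204C and T2G, with the Hspa1a base first and positions counted back from the start. Motifs searched on both strands were the 2-unit elements GAANNTTC and TTCNNGAA, each its own reverse complement, and the 3-unit elements, GAANNTTC with NNGAA after it and TTCNNGAA with NNTTC after it, which are reverse complements of each other and each contain both 2-unit elements. Hspa1a and Hspa1b each held GAANNTTC from 104 to 97 bases before the start, and Hsph1 held TTCNNGAA from 33 to 26 bases before the start shown. Hspe1 held overlapping matches to both 3-unit elements from 89 to 72 bases before its start. Hspd1 lies head to head with Hspe1, and the same stretch was found on the other strand, from 144 to 127 bases before 1 of its 2 annotated starts. The windows of Hspa5 and Dnajb1 held none of these letters. Over all 32851 promoters of that length, 12.8% held a 2-unit and 0.466% a 3-unit element. A match describes letters and was not tested as a binding site.

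Hspa1a and Hspa1b, the classical heat-inducible Hsp70 genes, whose proteins are nearly identical, were 7.46 to 11.6 times lower in the AML libraries than in the normal libraries of the same subset. Hspa1a (NCBI Gene 193740) was at 14.4 FPKM in DNAM-1+ cells of normal spleen, 58.7 in DNAM-1- cells of normal spleen, 1.67 in DNAM-1+ cells of AML spleen and 7.87 in DNAM-1- cells of AML spleen. Hspa1b (15511) was at 35.3, 118.7, 3.97 and 10.3 FPKM in the same order. Both genes were highest in the DNAM-1- library of normal spleen and lowest in the DNAM-1+ library of AML spleen, and both AML libraries lay below both normal ones. The genes lie side by side on chromosome 17 and can share reads: 58.8% of the 50-base words of the Hspa1a transcript in GENCODE M21 also occur in that of Hspa1b, and 47.1% of the 100-base words. Their split is therefore uncertain, and the sum is the firmer value.

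The sum of Hspa1a and Hspa1b was 49.7, 177, 5.64 and 18.2 FPKM in that order. In DNAM-1+ cells it was 8.81 times lower in the AML library, with a 95% counting interval of 7.45 to 10.5, on an estimated 1332 and 151 reads. In DNAM-1- cells it was 9.78 times lower, with an interval of 8.85 to 10.7, on 4513 and 469 reads. These intervals cover counting error only and hold nothing of the spread between mice. Relative to the constitutive Hspa8, the sum stood at 5.37% and 19.2% in the DNAM-1+ and DNAM-1- libraries of normal spleen and at 0.748% and 2.73% in those of AML spleen. Among protein-coding genes whose higher library reached 5 FPKM, Hspa1b and Hspa1a ranked as the second and the third lowest of 8324 log2 ratios in DNAM-1+ cells, and as the lowest pair of 8443 in DNAM-1- cells. The log2 ratios, taken after adding 1 FPKM to both values, were -2.53 (Hspa1a) and -2.87 (Hspa1b) in DNAM-1+ cells and -2.75 and -3.41 in DNAM-1- cells.

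**Figure D1:**
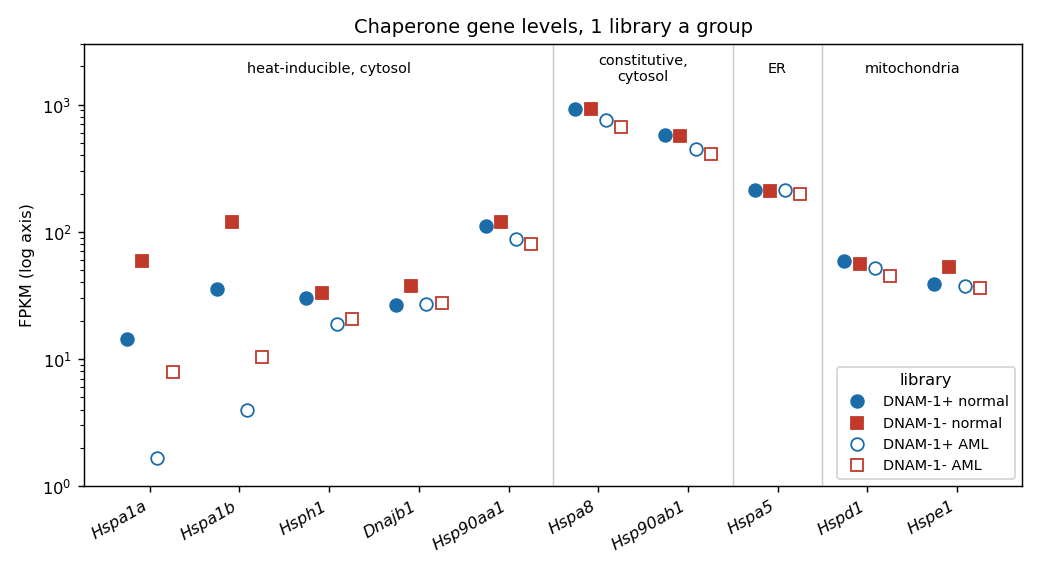
FPKM of the 10 chaperone genes on a log axis, with 1 point for each library (filled for normal and open for AML spleen, circles for DNAM-1+ and squares for DNAM-1- cells), grouped by class. Hspa1a and Hspa1b spread from 1.67 to 118.7 FPKM with both AML libraries lowest, while the 4 points of Hspa5 lie between 197.6 and 214.

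The other heat-inducible genes of the cytosol were lower in AML by far less, and not all of them in both subsets. Hsph1 (15505), the Hsp110 that acts as nucleotide exchange factor of Hsp70, was at 30.3 and 32.8 FPKM in the normal DNAM-1+ and DNAM-1- libraries and at 18.9 and 20.8 in the AML ones. Its level was 1.60 times lower in AML in DNAM-1+ cells (counting interval 1.46 to 1.77) and 1.58 times lower in DNAM-1- cells (1.44 to 1.74), and the AML libraries lay below the normal ones. Hsp90aa1 (15519), the stress-inducible Hsp90, was at 111 and 120 FPKM in normal and 87.7 and 80.1 in AML spleen. That is 1.27 times lower in DNAM-1+ cells (1.21 to 1.34) and 1.5 times lower in DNAM-1- cells (1.43 to 1.58). Again both AML libraries were the lower ones. Dnajb1 (81489), the J protein known as Hsp40 that starts the Hsp70 cycle, was at 26.7 FPKM in the normal DNAM-1+ and 37.5 in the normal DNAM-1- library and at 27.1 and 27.4 in the AML ones. Here only the DNAM-1- library of normal spleen stood out, above the other three, which lay within 26.7 to 27.4 FPKM. In DNAM-1- cells Dnajb1 was 1.37 times lower in AML (1.24 to 1.5), and in DNAM-1+ cells its AML to normal ratio was 1.02, with a counting interval that held 1 (0.917 to 1.13).

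The constitutive chaperones of the cytosol were the most abundant members in every library and were lower in AML in both subsets. Hspa8 (15481), the Hsc70 that folds new proteins and strips clathrin from vesicles, was at 926 and 924 FPKM in the normal DNAM-1+ and DNAM-1- libraries and at 754 and 664 in the AML ones. Hsp90ab1 (15516), the constitutive Hsp90, was at 577 and 563 FPKM in normal and 446 and 413 in AML spleen. The normal libraries nearly coincided for each gene, and the AML libraries lay below them. Hspa8 was 1.23 times lower in AML in DNAM-1+ cells (counting interval 1.20 to 1.25) and 1.39 times lower in DNAM-1- cells (1.36 to 1.42). Hsp90ab1 was 1.29 times (1.26 to 1.33) and 1.36 times lower (1.33 to 1.40). Reads of other genes can enter these values, since 73.2% of the 50-base words of the Hspa8 transcript and 58.5% of those of Hsp90aa1 occur in transcripts of other genes, against 4.49% for Hsp90ab1. For Hsp90aa1 the gene that shared most was Gm12346, and for Hspa8 it was Gm15459.

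Among the members of the organelles, Hspa5 was nearly level between AML and normal spleen, and Hspe1 was lower in AML chiefly in DNAM-1- cells. Hspa5 (14828), the BiP of the endoplasmic reticulum (ER) and a target of the unfolded protein response, was at 214 and 209 FPKM in the normal DNAM-1+ and DNAM-1- libraries and at 212 and 197.6 in the AML ones. It showed the narrowest range of the members, with AML to normal ratios of 0.989 in DNAM-1+ cells (counting interval 0.958 to 1.02) and 0.945 in DNAM-1- cells (0.914 to 0.978). Hspd1 (15510), the Hsp60 ring of the mitochondrial matrix, was at 58.9 and 55.9 FPKM in normal and 52.1 and 44.8 in AML spleen. It was 1.13 times lower in DNAM-1+ cells (1.04 to 1.22) and 1.25 times lower in DNAM-1- cells (1.14 to 1.36). Hspe1 (15528), the Hsp10 lid of that ring, was at 39 and 52.6 FPKM in normal and 37.6 and 35.9 in AML spleen. As with Dnajb1, the DNAM-1- library of normal spleen stood above the other three. Hspe1 was 1.47 times lower in AML in DNAM-1- cells (1.24 to 1.73), and its ratio in DNAM-1+ cells was 0.965 (0.814 to 1.14). Hspd1 and Hspe1 also share words with transcripts of other genes, 44.8% and 36.1% of those of 50 bases.

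Heat-inducible and constitutive classes can be set side by side. Past a 2-fold difference, only Hspa1a and Hspa1b were lower in AML, 2 of 10 members in each subset, beside 0.346% of 8682 genes in DNAM-1+ cells and 0.397% of 8808 in DNAM-1- cells. At 1.5-fold, Hsph1 joined them in both subsets, 3 of 10 beside 1.29% and 1.16% of all genes, and Hsp90aa1 in DNAM-1- cells, with a log2 ratio of -0.58, lay just outside. No member was 1.5-fold higher, beside 0.841% and 0.511% of all genes. In DNAM-1+ cells 9 of 10 members had a log2 ratio below 0, beside 47.3% of all genes, and in DNAM-1- cells 10 of 10, beside 50.2%. The 9 became 8 scaled to TPM, where Hspa5 in DNAM-1+ cells was at 0.004 in place of -0.02. Since the list was made with these ratios in view, nothing is read from the counts. The median log2 ratio of the 5 heat-inducible genes was -0.65 for DNAM-1+ and -0.63 for DNAM-1- cells, against -0.33 and -0.46 for the 2 constitutive ones. Without Hspa1a and Hspa1b, the other 3 heat-inducible genes had medians of -0.34 and -0.58, near those of the constitutive pair. Over all genes the medians were 0.01 and -0.001.

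Counted as RNA level per length, most of the difference lay in the constitutive genes. The 5 heat-inducible genes together summed to 218 FPKM in the normal DNAM-1+ and 368 in the normal DNAM-1- library, and to 139 and 146 in the AML ones. Hspa8 and Hsp90ab1 together summed to 1503 and 1487 FPKM in normal and 1200 and 1077 in AML spleen. The sum over all 10 genes was 19.3% lower in AML in DNAM-1+ cells and 30.9% lower in DNAM-1- cells.

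**Figure D2:**
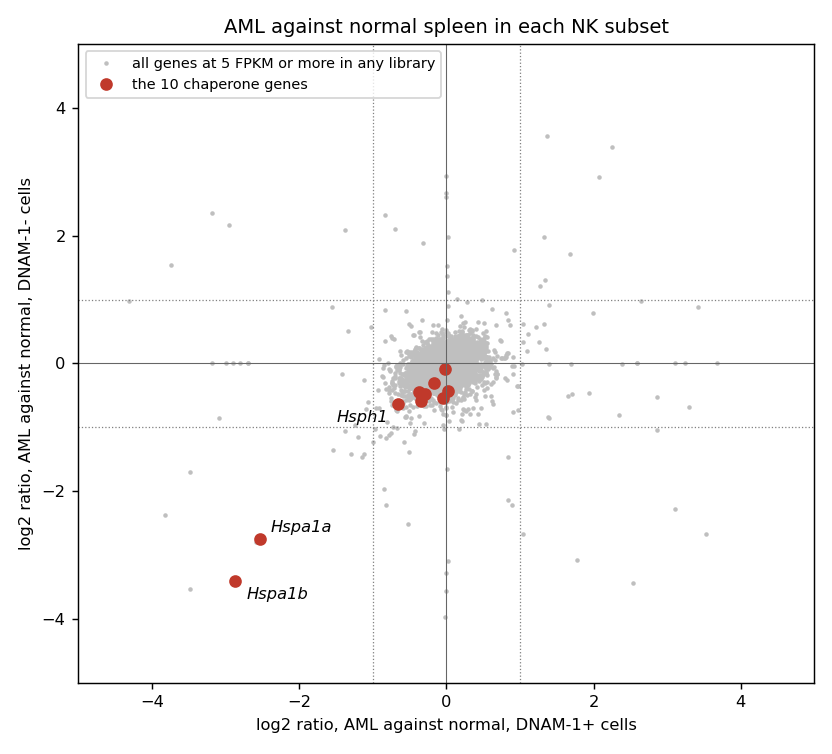
Log2 ratio of AML against normal spleen after adding 1 FPKM, in DNAM-1+ cells (x axis) and DNAM-1- cells (y axis), for all genes that reached 5 FPKM in any library (grey) and the 10 chaperone genes (red), with dotted lines at a 2-fold difference. Hspa1a and Hspa1b lie at -2.53 and -2.87 on the x axis and -2.75 and -3.41 on the y axis, apart from the other 8 members, which lie between -0.65 and 0.02 and between -0.63 and -0.08.

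The AML ratios of both subsets rest on different libraries, but both share the day labels. No mouse is identified, so the DNAM-1+ and DNAM-1- libraries may come from the same spleens. Agreement between the subsets is therefore not an independent check. At 5 FPKM or more in both comparisons, 9 of 8416 genes (0.107%) were 2-fold lower in both, 2 of the 10 members among them: Hspa1a, Hspa1b, Ifit3, Mid1, Mir6990, Oasl1, Oasl2, Rtp4 and Snord95. Between the subsets the log2 ratios differed by 0.54 for Hspa1b, 0.49 for Hspe1, 0.46 for Dnajb1, 0.24 for Hsp90aa1 and 0.18 for Hspa8, with the DNAM-1- value the lower one. For Hspa1a the order turned with the pseudocount: the ratios were -2.53 (DNAM-1+) and -2.75 (DNAM-1-) after adding 1 FPKM, and -3.11 and -2.90 with nothing added. Those of Hsph1 were -0.65 and -0.63. With 1 library a group the difference between subsets has no residual spread to be tested against. The summed levels of most marker lists of other cells differed by under 1.5 times between AML and normal spleen: the 9 monocyte markers summed to 411 and 483 FPKM in normal and AML spleen in DNAM-1+ cells and to 921 and 905 in DNAM-1- cells, the 7 macrophage markers to 26.4 and 30.7 and to 86.4 and 70, and the 7 neutrophil markers to 82.7 and 57.6 and to 145 and 112. Ly6c2, Ccr2 and Nr4a1, the last also an immediate early gene, made up most of the monocyte sum in DNAM-1+ cells. Of the other monocyte markers, Lyz2 was at 29.3 and 41.9 and at 239 and 254, and Fcgr4 at 5.45 and 3.74 and at 51.8 and 36.5. The 7 leukaemia and progenitor markers summed to 35.8 and 41.7 and to 24.1 and 24.2, and Kit and Myb made up most of that sum. Within that list Mpo, a myeloid granule gene, was higher in AML, at 0.25 and 1.58 FPKM in normal and AML spleen in DNAM-1+ cells and at 0.26 and 2.29 in DNAM-1- cells. Cd34 was at 0.04 and 0.58 and at 0.05 and 0.5, and Hoxa9 at 0.04 and 0.32 and at 0.04 and 0.18, all under 1 FPKM. Mpo, Cd34 and Hoxa9 were singled out after their values were seen. Of the rest of that list, Myb was lower in AML (16.1 and 12.4, and 14.9 and 9.97) and Kit higher (17.9 and 25.3, and 7.86 and 9.78). Meis1 was at 1.42 and 1.56 and at 0.99 and 1.44, and Hoxa10 did not exceed 0.05 in any library. Larger differences in the sums were seen for the 6 plasma cell markers in DNAM-1- cells (192 and 295) and the 6 dendritic cell markers (3.06 and 6.96, and 8.15 and 15.95), each higher in AML. The plasma cell difference lay almost wholly in Jchain (103 and 206). Mzb1 was at 29.4 and 30.1, Xbp1 at 43.45 and 43.01 and Irf4 at 13.45 and 12.23. The dendritic cell difference lay mostly in Cd209a (1.03 and 3.88, and 3.9 and 10.3), while Xcr1 was lower in AML in DNAM-1- cells (1.88 and 1.49). The part of other cells in the chaperone levels was not tested, and in bulk RNA fewer cells of a type and less RNA per cell cannot be told apart.

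Other genes of the chaperone network that reached 5 FPKM showed no difference as large as that of Hspa1a and Hspa1b. In 9 further lists with 102 genes, 86 reached 5 FPKM in DNAM-1+ cells and 87 in DNAM-1- cells. Of these, 0 were 1.5-fold lower or higher in AML in either subset. Over all genes, 1.29% and 1.16% were 1.5-fold lower and 0.841% and 0.511% higher. With so few genes a count of 0 lies near those shares, and nothing is read from it. The medians of the 9 lists together were -0.08 and -0.04. Hsf1, the gene of the heat shock factor, was at 31.8 and 35.5 FPKM in the normal DNAM-1+ and DNAM-1- libraries and at 33.9 and 35.4 in the AML ones. Hsf4 was at 9.27, 8.42, 8.35 and 9.27, and Hsbp1, whose product binds HSF1, at 43.6, 43.8, 38.5 and 50.1. RNA levels of these genes spanned little beside the range of Hspa1a, and the activity of the factors was not measured. The genes taken by symbol as small heat shock proteins were low. Of these, 6 of 8 were listed at all and 0 reached 5 FPKM. Hspb6 was at 2.49 to 3.58, Hspb11 at 1.65 to 4.61 and Cryab at 0.00 to 0.41. Hspb1, known elsewhere as strongly heat-inducible and singled out here after its values were seen, was at 0.12, 0.38, 0.25 and 0.00 FPKM.

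Among other Hsp70 family genes, Hspa9 (mitochondrial Hsp70) had AML log2 ratios of 0.02 for DNAM-1+ and -0.12 for DNAM-1- cells, Hspa14 of 0.04 and 0.02, and Hspa4 of -0.09 and -0.01. Of 17 other J protein genes, Dnaja1 had the lowest ratios, -0.40 and -0.54, at 68.8 and 71.2 FPKM in normal and 51.8 and 48.7 in AML spleen. The abundant Dnajb6 (-0.13 and -0.05) and Dnajc7 (-0.09 and -0.19) were nearer 0. The Hsp70 regulators Bag1, a nucleotide exchange factor (-0.08 and 0.22), St13, which stabilises the ADP state (-0.16 and -0.27), and Stub1, a ubiquitin ligase (-0.07 and -0.04), lay within 0.3 of 0. Among 19 Hsp90 family and cochaperone genes the medians were -0.13 and -0.08. Hsp90b1, the Hsp90 of the ER, had ratios of -0.14 and -0.04, the kinase cochaperone Cdc37 -0.18 and -0.14, and Fkbp8 0.02 and 0.01. The lowest were Fkbp5 in DNAM-1+ cells (-0.45) and Stip1, which bridges Hsp70 and Hsp90, in DNAM-1- cells (-0.48), both named after their values were seen.

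The cytosolic chaperonin and prefoldin genes had medians of -0.11 and -0.08, with Cct5 at -0.04 and 0.02, Cct2 at -0.01 and -0.05 and Pfdn5 at -0.18 and 0.16. The 19 ER stress genes had medians of -0.08 and -0.01, among them the lectin chaperone gene Calr (-0.04 and 0.03) and the disulfide isomerase gene Pdia3 (-0.08 and -0.04), beside the near-constant Hspa5. In mitochondria, Trap1 was at 0.10 and 0.26 and the protease gene Yme1l1 at 0.08 and 0.05, and the list's medians were 0.02 and 0.03. Immediate early genes, which cells induce within minutes of a stimulus, were mostly higher in AML in DNAM-1+ cells. In DNAM-1- cells they were divided. Of 19 at 5 FPKM or more, 18 had a log2 ratio above 0 in DNAM-1+ cells and 12 in DNAM-1- cells. Below 0 were 1 and 7 of 19, beside 47.3% and 50.2% of all genes. The medians of the 19 were 0.45 and 0.05. The lowest in DNAM-1- cells was Atf3 (-0.57), named after its value was seen. Fos was at 18.3 and 43.8 FPKM in normal and AML spleen in DNAM-1+ cells and at 49.9 and 74.9 in DNAM-1- cells. It was the only gene of that list past 2-fold, in DNAM-1+ cells (1.22). Junb had ratios of 0.48 and 0.11, Klf2 of 0.18 and 0.29 and Jund of 0.18 and 0.05.

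**Figure D3:**
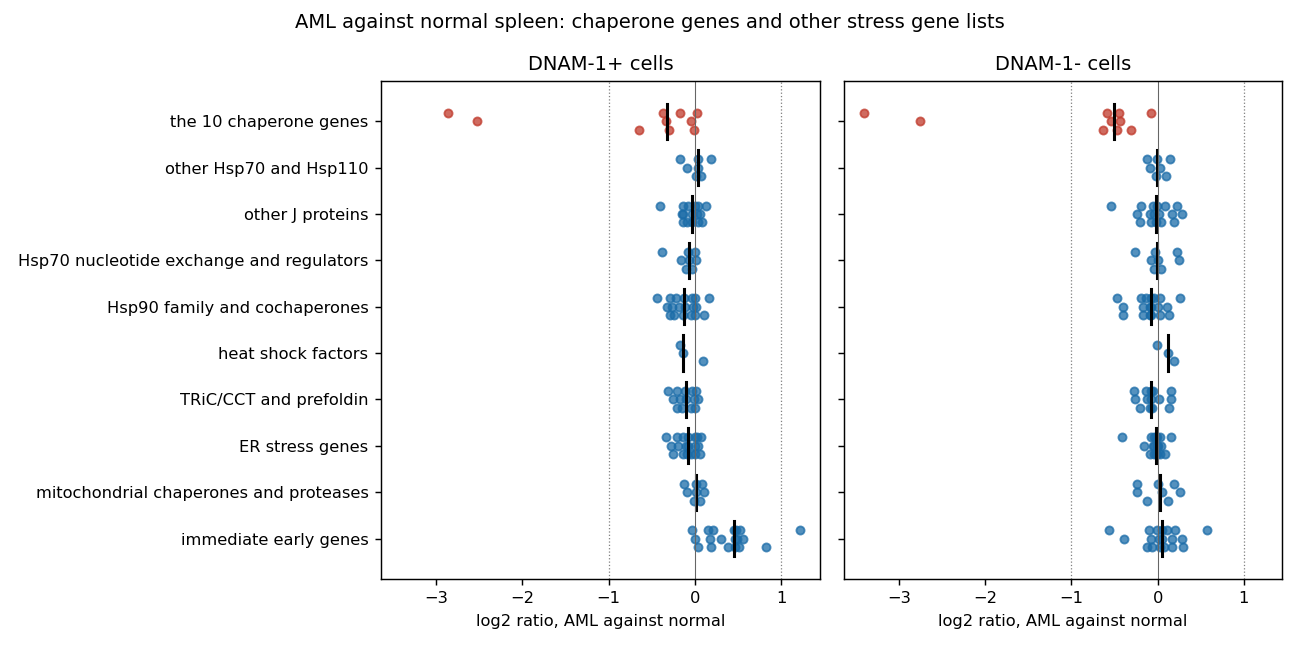
Log2 ratio of AML against normal spleen after adding 1 FPKM for the 10 chaperone genes (red) and 9 other lists (blue), in DNAM-1+ cells (left) and DNAM-1- cells (right), with 1 point per gene that reached 5 FPKM and a bar at the median. Hspa1a and Hspa1b are the only points left of the dotted line at -1. Immediate early genes have a median of 0.45 in DNAM-1+ cells and 0.05 in DNAM-1- cells.

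Between the sorted subsets, Hspa1a and Hspa1b were again the members that differed most, with lower levels in DNAM-1+ cells. Their sum was 3.57 times lower in DNAM-1+ than DNAM-1- cells of normal spleen (counting interval 3.37 to 3.81) and 3.22 times lower in those of AML spleen (2.69 to 3.92). The log2 ratios of Hspa1a were -1.95 and -1.73, and those of Hspa1b -1.72 and -1.18. They were the 2 members of 10 past a 2-fold difference in each spleen, beside 3.97% of 8915 and 3.19% of 8839 genes that were likewise lower. Such differences were thus far more common among all genes here than between AML and normal spleen. Hspa1a ranked 139 from the lowest of 8544 protein-coding genes in normal spleen and 128 of 8478 in AML spleen, and Hspa1b 187 and 225.

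The other 8 members differed by under 1.5-fold between the subsets. Hspa8 had log2 ratios of 0.003 (normal; -0.01 after median ratio scaling and -0.004 scaled to TPM) and 0.18 (AML), Hsp90ab1 of 0.03 and 0.11, and Hspa5 of 0.04 and 0.10. In normal spleen Dnajb1 was 1.40 times (counting interval 1.28 to 1.55) and Hspe1 1.35 times lower (1.15 to 1.58) in DNAM-1+ cells, log2 ratios of -0.47 and -0.42, and in AML spleen they were at -0.02 and 0.07, with counting intervals that held equality. Hsph1 was at -0.11 and -0.13, Hsp90aa1 at -0.11 and 0.13, and Hspd1 at 0.07 and 0.21. The lower Hspa1a and Hspa1b in DNAM-1+ cells stood beside lower markers of some other cell types, but not of all. All 7 B cell markers differed by 2-fold or more in that direction in both spleens (medians -2.18 and -1.99), as did 6 and 5 of 9 monocyte markers (medians -2.84 and -2.43) and 6 and 2 of 6 macrophage markers tested (-1.43 and -0.97). T cell markers mostly went the other way, with medians of 1.38 (normal) and 1.65 (AML). Of those tested, 3 of 4 and 3 of 3 were past 2-fold, while Cd8b1 was at -0.95 in normal spleen. The 2 leukaemia and progenitor markers tested had medians of 0.60 and 0.79, and the monocyte marker Ccr2 was at 0.31 and 0.38. Immediate early genes had medians below 0, -0.67 and -0.23. At least 2-fold lower were 6 of 19 in normal spleen, beside 3.97% of all genes, and 1 of 19 in AML spleen, beside 3.19%. The part of these markers and genes in the chaperone difference was not tested.

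**Figure D4:**
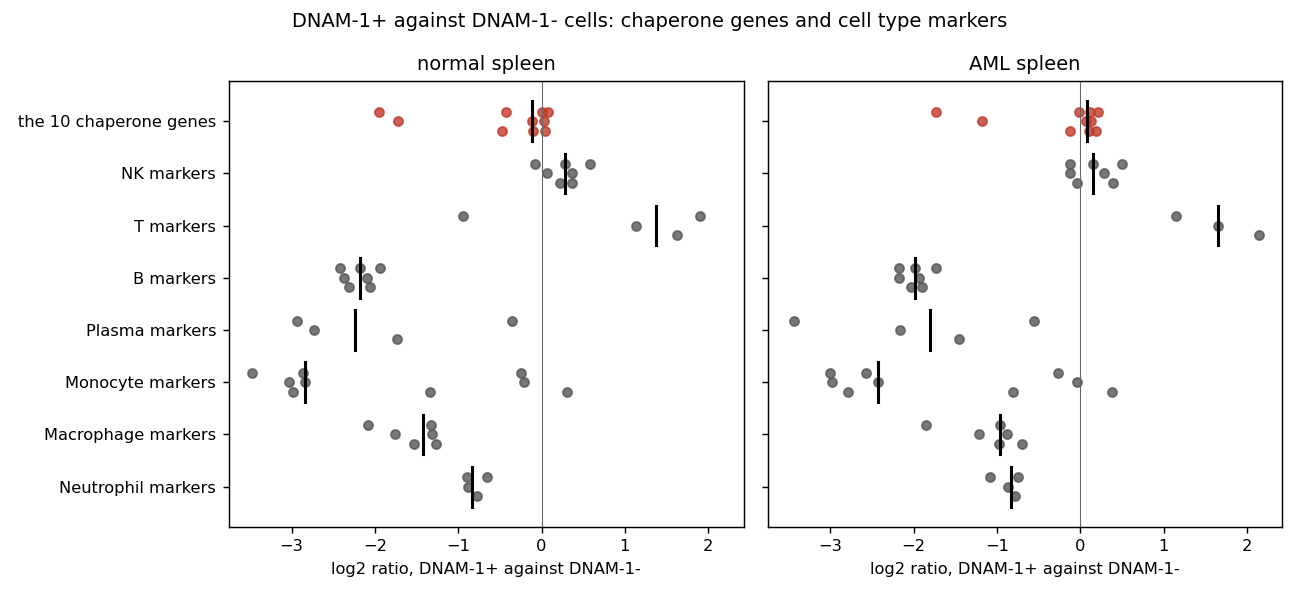
Log2 ratio of DNAM-1+ against DNAM-1- cells after adding 1 FPKM in normal spleen (left) and AML spleen (right) for the 10 chaperone genes (red) and markers of 7 cell types (grey), with 1 point per gene at 5 FPKM or more and a bar at the median. Hspa1a and Hspa1b lie at -1.95 and -1.72 in normal and -1.73 and -1.18 in AML spleen, among values also taken by B cell and macrophage markers.

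Genes with a like pattern were ranked by distance over the 4 libraries in log2(FPKM + 1), centred on each gene's mean, among 8648 protein-coding genes that reached 5 FPKM in any library. For the sum of Hspa1a and Hspa1b the nearest 5 were Oasl2 (distance 1.76), Ifi204 (2.15), Cd8b1 (2.21), Oas2 (2.23) and Fcgr1 (2.31). Oasl2, which belongs to the interferon-inducible oligoadenylate synthetase family, was at 5.74 and 16.1 FPKM in the normal DNAM-1+ and DNAM-1- libraries and at 1.74 and 5.41 in the AML ones, with smaller AML ratios of -1.30 and -1.42. Of these, Cd8b1 and Fcgr1 reached no more than 5.32 and 7.41 FPKM. For Hspa8 the nearest were Ogfr (0.0168), Trim12c (0.0526), Clip4 (0.0529), Stip1 (0.0657) and Gm12250 (0.0683). Hspa8 ranged over only 0.479 in log2 and the sum over 4.75, so the distances to Hspa8 and to the sum are not comparable. The ranking rests on 4 values a gene without replicates, and shared regulation was not tested. Stip1, also among the Hsp90 cochaperones above, was at 104 and 108 FPKM in normal and 83.3 and 77.3 in AML spleen.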

How the data were processed

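The values deposited by the authors are FPKM, 1 file per library, keyed by NCBI Gene number per the file headers, and an unlisted gene was taken as 0. Bowtie2 2.2.5 and RSEM are named in the submitters' processing notes, with no roles, and the genome build, annotation, strand and read length are not given in the sources used here. RSEM in general shares reads among similar transcripts, which can move values between Hspa1a and Hspa1b and to other near copies. Of 17723 gene numbers, 17668 matched a symbol in the RefSeq table of GRCm38.p6.

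Each contrast is a log2 ratio after adding 1 FPKM, counted where the higher library reached 5 FPKM, at 2-fold or 1.5-fold. No test was run, because each group holds 1 library. The members, lists and markers were chosen with earlier results of these data known. Depth was estimated as a low value at which FPKM of microRNA genes of 55 to 100 nt became whole numbers of reads, up to 6, for 90.5% to 93.9% of values within 0.1 read, with each length shortened by 36 to 37 nt. The shortening and the share of whole values asked for were set after seeing the data, and a multiple of this depth would also give whole reads and narrower intervals. Reads of a member were estimated from that depth and its longest protein-coding GENCODE M21 transcript. Intervals are exact 95% binomial intervals (Clopper-Pearson) of the estimated reads. The text names all members, from each other list the 3 genes with the highest mean and those past 2-fold in an AML contrast, and the 5 nearest in pattern, besides genes marked as chosen after their values were seen. Calculations used Python 3.11.15, pandas 2.3.3 and scipy 1.17.1 and were tested on simulated data. Alternatives were other pseudocounts, floors and folds, 2 scalings, and protein-coding genes alone.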

Additional observations from a re-analysis of the deposited data

Results flagged for a closer look

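Ratios of opposite sign were found for 3 members in the 2 levels of the other factor, and none of these differences was tested. Dnajb1 had AML log2 ratios of 0.02 for DNAM-1+ and -0.44 for DNAM-1- cells, a difference of 0.46, and the counting interval of the former held equality. Hspe1 had DNAM-1+ to DNAM-1- log2 ratios of -0.42 (normal) and 0.07 (AML), a difference of -0.49. The counting interval of its AML ratio also held equality. Those of Hsp90aa1 were -0.11 and 0.13, a difference of -0.24.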

How the results depend on the processing

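Counting intervals belong to the ratios with nothing added. After adding 1 FPKM, Hspa1a lay outside its interval for AML in DNAM-1+ cells (-2.53 against -3.56 to -2.66). The same held for DNAM-1 in AML spleen (-1.73 against -2.71 to -1.76). Member log2 ratios, 220 in number, were recomputed with other pseudocounts, no pseudocount (chosen after seeing the data) or another scaling. Of these, 207 moved by no more than the average distance from the ratio with nothing added to its interval ends. Another 13 moved by more, all of them of Hspa1a, Hspa1b or their sum, and 0 ratios past 2-fold changed sign. Among the rest, Hspa5 in DNAM-1+ cells (AML) and Hspa8 in normal spleen (DNAM-1), both within 0.03 of 0, changed sign with scaling. The AML ratio of the sum ranged from -3.14 (no pseudocount) to -2.36 (pseudocount 5) in DNAM-1+ cells and from -3.29 to -2.98 in DNAM-1- cells. Members past 2-fold numbered 1 in place of 2 for AML in DNAM-1+ cells with a floor of 20 FPKM, which leaves out Hspa1a by construction, and 0 for DNAM-1 in AML spleen with that floor or with a pseudocount of 5. All other settings gave 2, except that 3 members were past 1.5-fold in each AML contrast, which is within 1.5 times. Genes at least 2-fold lower in AML numbered, in DNAM-1+ and DNAM-1- cells, 30 and 35, against 3 and 7 with a floor of 20 FPKM, 102 and 119 with none, 112 and 102 at 1.5-fold, 18 and 17 with a pseudocount of 5, 11 and 17 among protein-coding genes, and 89 and 92 scaled to TPM, which lifts more genes over the floor. Genes 2-fold lower in DNAM-1+ cells numbered 354 in normal and 282 in AML spleen, against 143 and 110, 589 and 444, 559 and 445, 161 in AML spleen with the pseudocount of 5, and 571 and 450 scaled to TPM. No paired analysis was possible because each group holds 1 library and no mouse is identified. Depth limits Hspa1a most, at an estimated 47 reads in DNAM-1+ cells of AML spleen.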
